A study of Rattus norvegicus with 8 samples.

Results

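The Nr4a orphan nuclear receptors (Nr4a1, Nr4a2 and Nr4a3) and the Egr zinc finger factors (Egr1, Egr2, Egr3 and Egr4) were examined in rat skeletal muscle after swimming and a meal. Every probe set whose only gene symbol in the platform annotation was one of these 7 genes was taken. These 7 genes, of 14217 that the arrays named through single-symbol probe sets, had 12 probe sets, 6 of Nr4a and 6 of Egr genes, out of 31042 tested. Nr4a3 had 3 probe sets, Nr4a2, Egr2 and Egr4 had 2 each, and Nr4a1, Egr1 and Egr3 had 1 each.

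Epitrochlearis muscle, from the forelimb of male Sprague-Dawley rats aged 6 weeks, was profiled with 1 array per rat, and each array was labelled a biological replicate. All 8 rats had practised swimming for 3 days, had eaten a restricted 5 g of chow on the day before, and swam for 2 h. They were then gavaged with a carbohydrate meal of 44 kJ that held either an amino acid mixture (AAM, n = 4) or whey protein hydrolysate (WPH, n = 4), which is milk whey protein cut into peptides by enzymes. The comparison asks whether peptides and free amino acids of matched composition differ in their effect on muscle transcripts. No resting or unfed rat was among the samples, so these data do not measure induction of the genes by swimming or by feeding. How long after the meal the muscle was taken, and which rats shared a barrel, was not stated in the sources used here.

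Nr4a and Egr genes are immediate early genes: contraction, calcium, adrenergic signals and growth factors switch on their transcription through factors that are already present, chiefly CREB, SRF with its ETS-family partners, and MEF2. The transcripts are short-lived. Nr4a receptors have no open ligand pocket and are controlled mainly by how much of them is made. They bind the NBRE element as monomers, and Nr4a1 and Nr4a2 also pair with the retinoid X receptors. In muscle they are linked to genes of glucose and lipid use. Egr proteins bind GC-rich sites, and Egr1, Egr2 and Egr3 are held back by the corepressors Nab1 and Nab2. Egr1 is induced by many stimuli, Egr2 is best known from Schwann cells, Egr3 is needed for muscle spindles, and Egr4 is best known from the nervous system and germ cells.

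The sequence upstream of a gene can hold motifs that such factors bind. The search below describes matching letters, and binding was not tested. A RefSeq promoter table of the GRCr8 build held 5 of the 7 genes, namely Nr4a1, Nr4a2, Egr1, Egr2 and Egr4. The 250 bases before 1 annotated start per gene were searched on both strands for 7 motifs: the cAMP response element TGACGTCA, its core TGACG (which every full element also holds), the CArG box to which SRF binds, the ETS core CCGGAA, the NBRE AAAGGTCA, the EGR site GCGGGGGCG or GCGTGGGCG, and the TATA box TATAAA. Windows of Nr4a1 (chr7:134259888-134260137, plus strand), Egr1 (chr18:26736828-26737077, plus strand) and Egr2 (chr20:21054442-21054691, minus strand) are printed 5′ to 3′ with the matches in capitals. Nr4a1 is shown because it held the most TGACG cores of the 5, Egr1 because it held 2 CArG boxes, and Egr2 because it shares 2 elements with Egr1.
Nr4a1: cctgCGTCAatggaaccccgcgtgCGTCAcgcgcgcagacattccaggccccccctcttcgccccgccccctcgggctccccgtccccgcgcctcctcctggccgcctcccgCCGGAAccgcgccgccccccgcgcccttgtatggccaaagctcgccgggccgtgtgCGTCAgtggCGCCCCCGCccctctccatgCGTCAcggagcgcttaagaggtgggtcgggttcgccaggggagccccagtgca
Egr1: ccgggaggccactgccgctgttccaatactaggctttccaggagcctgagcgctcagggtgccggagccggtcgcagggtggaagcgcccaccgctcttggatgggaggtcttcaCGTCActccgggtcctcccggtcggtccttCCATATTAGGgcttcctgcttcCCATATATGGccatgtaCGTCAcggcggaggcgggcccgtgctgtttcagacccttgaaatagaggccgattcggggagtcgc
Egr2: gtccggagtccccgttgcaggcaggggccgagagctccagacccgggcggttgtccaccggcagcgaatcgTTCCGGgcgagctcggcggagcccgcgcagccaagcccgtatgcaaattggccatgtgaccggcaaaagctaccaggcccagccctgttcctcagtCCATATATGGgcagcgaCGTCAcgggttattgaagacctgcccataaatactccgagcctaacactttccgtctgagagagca

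The Nr4a1 window held 4 TGACG cores, printed as CGTCA on this strand, together with 1 ETS core and 1 EGR site. Of the 33469 windows in the table, 0.173% held 4 or more such cores and 18.2% held any. Egr1 held 2 CArG boxes, which 0.0209% of windows did (7 windows, Egr1 included), and 2 TGACG cores. Egr2 held 1 CArG box, found in 501 of the 33469 windows, with the letters CCATATATGG that also form the second box of Egr1. In both genes this box lay 83 to 74 bases before the start and was followed by a TGACG core 66 to 62 bases before it. Egr4 held 2 TGACG cores and Nr4a2 held 1. None of the 5 windows held the full cAMP response element, the NBRE or the TATA box in the exact letters searched. In those letters they were present in 1.59%, 1.24% and 12.9% of all windows. Variant letters were not searched, such as TATATAAG, which the Egr4 window holds. The EGR site occurred in 2.85% and the ETS core in 12.6%. The share of G and C was 74.8% in the Nr4a1 window, 68% in Egr4, 63.2% in Egr1, 62% in Egr2 and 52% in Nr4a2. Its median over all windows was 51.2%, and the motif shares were not matched for base content.

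The arrays were deposited as log2-like expression values, between 5.28 and 14.2. Their log base was not stated, so differences are given in deposited log units. No 2 arrays were identical, and their medians lay between 6.6628 and 6.6629. Differences between arrays were minute for most probe sets: the SD over the 8 arrays had a median of 3.69e-06, so no fold change can be taken from a difference of deposited values. The size of a difference is given instead in standardized form, the WPH mean minus the AAM mean divided by the pooled SD within groups, with its 95% interval. The tissue label was checked on fast fibre markers, all 10 of which were measured, with levels from 11.3 to 14.2. In whole muscle, fewer cells of a type and less RNA per cell cannot be told apart.

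Among these transcripts, Nr4a3, Nr4a1 and Egr1 were higher on average after the hydrolysate, Nr4a2 differed less, and Egr2, Egr3 and Egr4 varied least between rats. No probe set of the 12 passed the threshold of an adjusted p below 0.05 by limma, where the share over all 31042 probe sets was 0%. The adjusted p was 0.9998 for all 12. By limma's unadjusted p, 4 of the 12 were below 0.05 (all 3 of Nr4a3 and that of Nr4a1), against 1110 probe sets or 3.58% overall. The 3 of Nr4a3 measure 1 gene and do not count as separate evidence. Of the 12, 9 were higher and 3 lower after WPH, against 47.3% higher over all probe sets. This count takes Nr4a3 3 times and Nr4a2 2 times. At 1 probe set per gene, 4 of the 7 genes were higher, against 46.1% of all 14217 genes. With each array centred on its median the overall share higher was 9.01%, and 7 of the 12 were then higher. Centring shifts all probe sets of an array alike, which changes standardized differences most where the spread is small. Of the 12, 8 lay above the 90th percentile of spread, so these 2 shares were not compared. In none of the 12 did the 4 WPH arrays separate completely from the 4 AAM arrays, an outcome seen for 1.08% of all probe sets with WPH above and 1.15% with WPH below. The median standardized difference was 0.75 over the 12 and -0.04 over all probe sets.

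**Figure D1:**
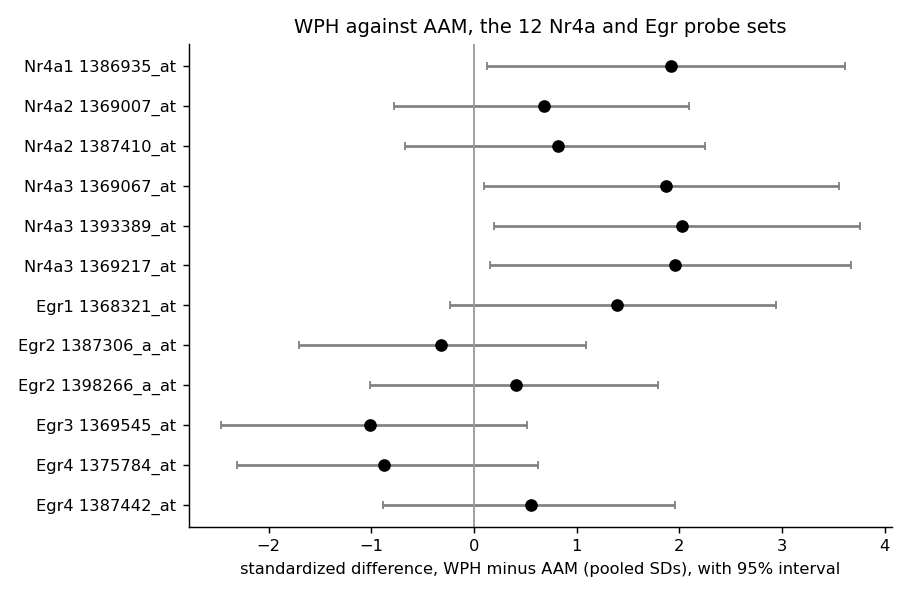
Standardized difference (WPH mean minus AAM mean, in pooled SDs) of each of the 12 probe sets, with its 95% interval and n = 4 arrays per group. The intervals of Nr4a1 and of the 3 Nr4a3 probe sets lie above 0, and those of the other 8 probe sets include 0.

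Nr4a3 (NOR-1) is the Nr4a receptor most often reported to be induced by exercise in muscle. Its probe set 1369067_at read 9.629, 9.631, 9.643 and 9.611 in AAM replicates 1 to 4 and 9.637, 9.665, 9.661 and 9.646 in WPH replicates 1 to 4. WPH replicates 2, 3 and 4 lay above every AAM array, while WPH replicate 1 lay below AAM replicate 3. The group means were 9.628 ± 0.0129 and 9.652 ± 0.0129 (SD, n = 4 each). The standardized difference was 1.87 (95% interval 0.0946 to 3.55), with an unadjusted limma p of 0.0298 and an exact two-sided permutation p of 0.0571. With 4 arrays per group, the smallest p this permutation test can give is 0.0286.

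The other probe sets of Nr4a3 gave the same order of means. Probe set 1393389_at read 8.496, 8.495, 8.516 and 8.464 after AAM and 8.510, 8.563, 8.555 and 8.531 after WPH. Again AAM replicate 4 was the lowest and WPH replicate 2 the highest, and only WPH replicate 1 fell within the AAM range. Its standardized difference was 2.03 (0.199 to 3.76; unadjusted limma p = 0.0216, exact permutation p = 0.0571). Probe set 1369217_at read 7.0739, 7.0758, 7.0781 and 7.0757 after AAM and 7.0775, 7.0781, 7.0799 and 7.0801 after WPH. Here WPH replicates 3 and 4 stood above all AAM arrays, and AAM replicate 1 rather than 4 was the lowest. Its standardized difference was 1.96 (0.153 to 3.67; unadjusted limma p = 0.0249, exact permutation p = 0.0857), and without AAM replicate 3 it was 3.10.

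Nr4a1 (Nur77), which is linked to glucose use in muscle, had 1 probe set, 1386935_at. It read 10.0513, 10.0508, 10.0513 and 10.0505 after AAM and 10.0512, 10.0521, 10.0518 and 10.0522 after WPH. The 4 WPH values all lay above the AAM mean, but WPH replicate 1 lay below AAM replicates 1 and 3. The difference of means was 0.821 ± 0.302 thousandths of a deposited log unit (SE, n = 4 per group), and the standardized difference was 1.92 (0.127 to 3.62; unadjusted limma p = 0.0270, exact permutation p = 0.0857). Without WPH replicate 1 the standardized difference was 3.08.

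Nr4a2 (Nurr1), best known for its part in dopamine neurons, showed another pattern. Probe set 1369007_at read 7.6379, 7.6408, 7.6417 and 7.6385 after AAM and 7.6400, 7.6405, 7.6396 and 7.6443 after WPH. Only WPH replicate 4 exceeded the AAM range, and the other 3 WPH arrays lay inside it. The standardized difference was 0.68 (-0.781 to 2.09; unadjusted limma p = 0.350, exact permutation p = 0.429). It rested largely on WPH replicate 4, without which it was 0.20, and it was 0.38 without AAM replicate 1 and 1.03 without AAM replicate 3. Probe set 1387410_at also had its highest value in WPH replicate 4, with a standardized difference of 0.82 (-0.669 to 2.25; exact permutation p = 0.286). That value was 0.43 without WPH replicate 4, 0.51 without AAM replicate 4, 1.35 without AAM replicate 3 and 1.34 with quantile normalization.

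**Figure D2:**
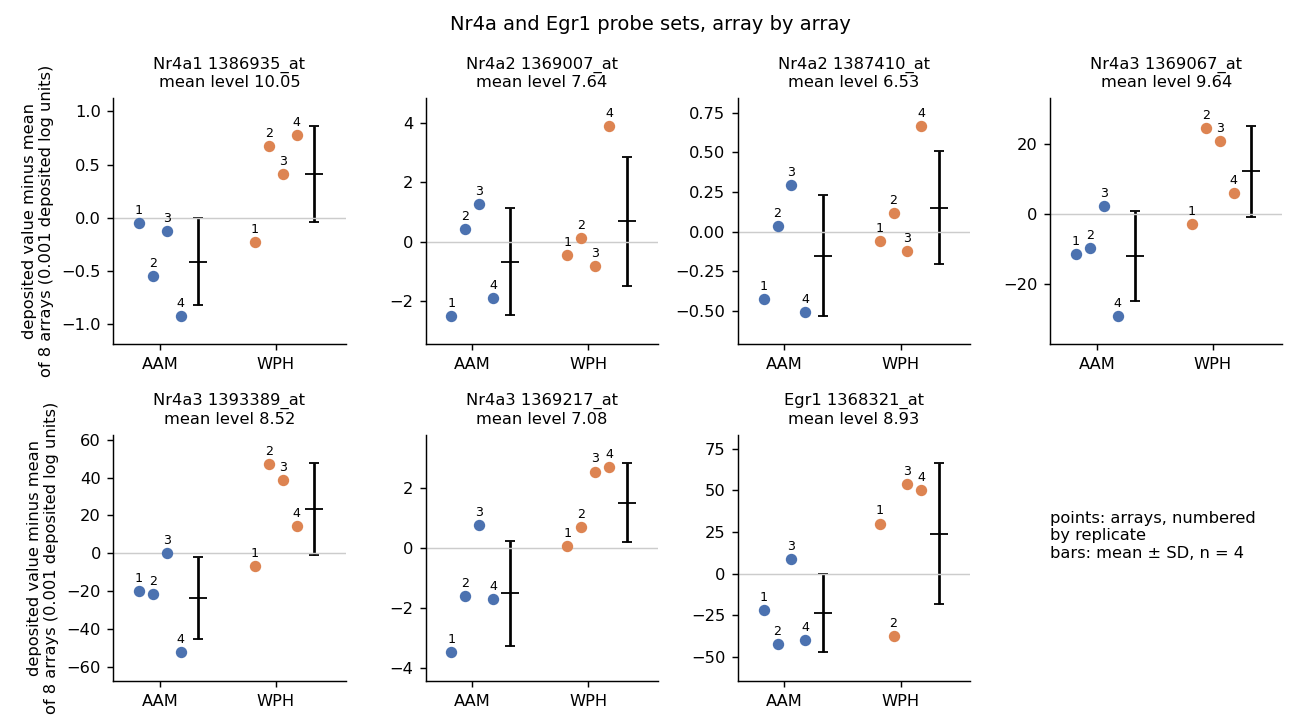
Deposited value of each array minus the mean of the 8 arrays, in 0.001 deposited log units, for the 7 probe sets of Nr4a1, Nr4a2, Nr4a3 and Egr1. Points are single rats numbered by replicate, bars are the mean ± SD (n = 4), and each panel has its own axis. WPH replicate 1 falls inside the AAM range in every Nr4a panel, and WPH replicate 2 does so for Egr1.

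Egr1, the most widely induced Egr factor, had 1 probe set, 1368321_at. It read 8.913, 8.893, 8.944 and 8.895 after AAM and 8.965, 8.897, 8.988 and 8.985 after WPH. WPH replicates 1, 3 and 4 lay above every AAM array, whereas WPH replicate 2 lay among the lowest AAM values. The means were 8.911 ± 0.0235 and 8.959 ± 0.0424 (SD, n = 4 each), and the standardized difference was 1.40 (-0.232 to 2.94; unadjusted limma p = 0.0807, exact permutation p = 0.0857). Without WPH replicate 2 it was 3.44, and the adjusted p over all probe sets was still above 0.99.

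The array of WPH replicate 2 was also compared with the others on gene lists, by a score that is the mean z-score over the measured genes of a list. For 34 other immediate early genes it was -0.667 in WPH replicate 2, against 0.0401 to 0.729 in the other WPH arrays and -0.416 to -0.0305 in the AAM arrays. For 6 of 6 fibroblast markers it was -1.21 in that array, within a WPH range that reached 1.38 and against an AAM range of -0.579 to 0.680. For 4 of 4 smooth muscle markers it was -1.27 (WPH up to 0.819, AAM -0.516 to 0.450), and for 4 of 4 adipocyte markers -1.04 (WPH up to 0.411, AAM -0.832 to 1.16). In each of these 4 lists this array had the lowest score of the 8, as it did for 3 of 5 Schwann cell markers (-0.784, AAM -0.414 to 0.991). It was not low for every list. Its scores for macrophage, endothelium and fast fibre markers (0.0510, -0.0380 and -0.276) were not the lowest of the 8. For 4 of 4 neutrophil markers the score was 0.329 (WPH -0.480 to 0.773, AAM -0.948 to 0.548). For 6 of 6 slow fibre markers it was 0.894, and WPH replicate 1 had 0.935. WPH replicates 3 and 4, which had the highest Egr1 values and the highest immediate early gene scores (0.729 and 0.670), scored -1.30 and -1.26 for slow fibre markers, below the AAM range of -0.513 to 1.08. Of those 6 markers 5 were lower after WPH, with a median standardized difference of -0.45. None of the marker genes is listed at 0, since the lowest deposited value of any probe set was 5.28. The part of these values in the Egr1 result was not tested. In the same array Nr4a3 had the highest value of the 8 for 1369067_at and 1393389_at.

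The remaining Egr genes varied far less. Egr2 probe set 1387306_a_at ranged over 0.387 thousandths of a deposited log unit, with AAM replicate 4 and WPH replicate 1 the highest, and had a standardized difference of -0.32 (-1.70 to 1.09; exact permutation p = 0.629), which turned to 0.21 without AAM replicate 4 and to 0.03 without WPH replicate 2. Egr2 probe set 1398266_a_at ranged over only 1.56 millionths and had 0.41, which turned negative with quantile normalization or median centring. Egr3 (1369545_at) ranged over 8.12 millionths around a mean of 6.29 and had -1.01 (-2.47 to 0.521; exact permutation p = 0.229), but 0.71 with quantile normalization and -1.66 without AAM replicate 3. The WPH arrays of Egr3 all lay below the AAM mean. Egr4 probe sets 1375784_at and 1387442_at ranged over 3.03 and 3.39 millionths and had -0.87 and 0.56, and quantile normalization turned both signs. The first was -1.90 without WPH replicate 3 and -0.49 without AAM replicate 3, and the second ranged from 0.27 without WPH replicate 4 to 1.88 without WPH replicate 1. No direction is given for these 3 genes.

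The members divided by how much they varied between rats, taken as the place of each probe set among all 31042. The SD over the 8 arrays was at percentile 99.94 for Egr1 (0.0408), 99.92 for Nr4a3 probe set 1393389_at (0.0328) and 99.81 for Nr4a3 probe set 1369067_at (0.0176). It was at percentile 99.09 for Nr4a3 probe set 1369217_at, 99.05 and 96.8 for the Nr4a2 probe sets, 97.6 for Nr4a1 and 93.5 for Egr2 probe set 1387306_a_at. The other Egr2 probe set was at percentile 7.28, Egr3 at 38.3, and the Egr4 probe sets at 18.4 and 21.7. In all, 8 of the 12 lay above the 90th percentile and 5 above the 99th. These probe sets of small spread also had the lowest mean levels of the 12. Their levels were at percentile 13.4 (Egr2 1398266_a_at), 28.6 (Egr3), and 38.0 and 16.2 (Egr4 1375784_at and 1387442_at) of all probe sets. The deposited values carry no detection call, so whether Egr3, Egr4 and Egr2 1398266_a_at were measured above background is unknown here.

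**Figure D3:**
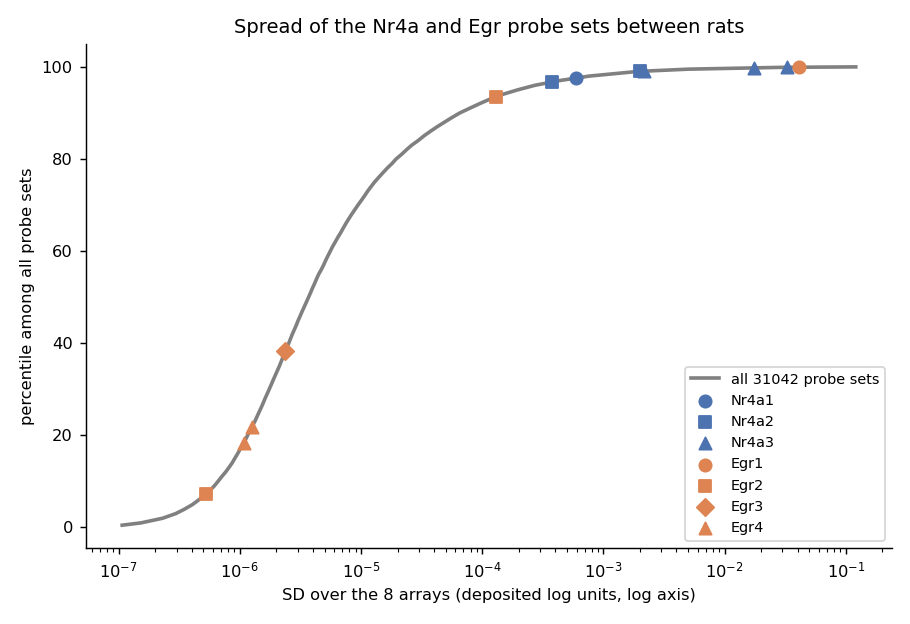
SD of the deposited values over the 8 arrays (deposited log units, log axis) against its percentile among all 31042 probe sets (grey line), with the 12 Nr4a (blue) and Egr (orange) probe sets marked by gene. Egr1 and all Nr4a probe sets lie above percentile 96, while Egr3, both Egr4 and 1 of the Egr2 probe sets lie below percentile 40.

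Probe sets of the same gene were compared over the 8 arrays as a check on the measurement, with exact permutation p-values adjusted over the 6 such pairs. For Nr4a3, 1369067_at and 1393389_at tracked each other between rats (Pearson r = 0.997, adjusted exact p = 2.98e-04; Spearman rho = 0.976, adjusted exact p = 0.00238; r = 0.993 without the 2 arrays farthest from the median). Each correlated less closely with 1369217_at (r = 0.729 and 0.733, adjusted exact p = 0.0589 for both; rho = 0.810 and 0.762, adjusted exact p = 0.0436 and 0.0551; r = 0.876 and 0.874 without 2 arrays). The Nr4a2 probe sets had r = 0.978 (adjusted exact p = 5.21e-04; rho = 0.952, adjusted exact p = 0.00342; r = 0.970 without 2 arrays). The Egr2 probe sets ran opposite on average (r = -0.606, adjusted exact p = 0.137; rho = -0.381, adjusted exact p = 0.428; r = 0.331 without 2 arrays), as did those of Egr4 (r = -0.318, adjusted exact p = 0.430; rho = -0.333, adjusted exact p = 0.428; r = -0.306 without 2 arrays), and no Egr pair had an adjusted exact p below 0.05.

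Between genes, 21 pairs were correlated over the 8 arrays at the probe set of highest mean level, and no pair had an adjusted exact p below 0.05. The smallest was that of Nr4a1 and Nr4a3 (r = 0.865, exact p = 0.00642, adjusted 0.135; rho = 0.786, exact p = 0.0279; r = 0.903 without AAM replicate 4 and WPH replicate 4). After the group means were removed their r was 0.704. Nr4a3 and Egr1 had r = 0.447 (exact p = 0.265, adjusted 0.702; rho = 0.524, exact p = 0.197). Their r was 0.839 when the lowest and the highest array for Nr4a3, AAM replicate 4 and WPH replicate 2, were left out. After the group means were removed it was -0.026, with 0.765 within the AAM arrays and -0.466 within the WPH arrays. Nr4a3 and Egr2 had r = -0.742 (exact p = 0.0342, adjusted 0.359; rho = -0.643, exact p = 0.0962), which became -0.234 without the same 2 arrays. After the group means were removed the r of Nr4a3 and Egr2 was -0.913, with -0.864 within the AAM arrays and -0.961 within the WPH arrays. By rank, the smallest exact p was that of Nr4a3 and Egr3 (rho = -0.810, exact p = 0.0218, adjusted 0.293). Their r was -0.651 (exact p = 0.0781), and -0.591 without the same 2 arrays. Nr4a1 and Egr2 had r = -0.695 (exact p = 0.0552, adjusted 0.386), and -0.648 without AAM replicate 4 and WPH replicate 4. Nr4a2 had r = 0.527 with Nr4a1 (exact p = 0.178, adjusted 0.623; rho = 0.333, exact p = 0.428), which became -0.134 without AAM replicate 4 and WPH replicate 4.

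**Figure D4:**
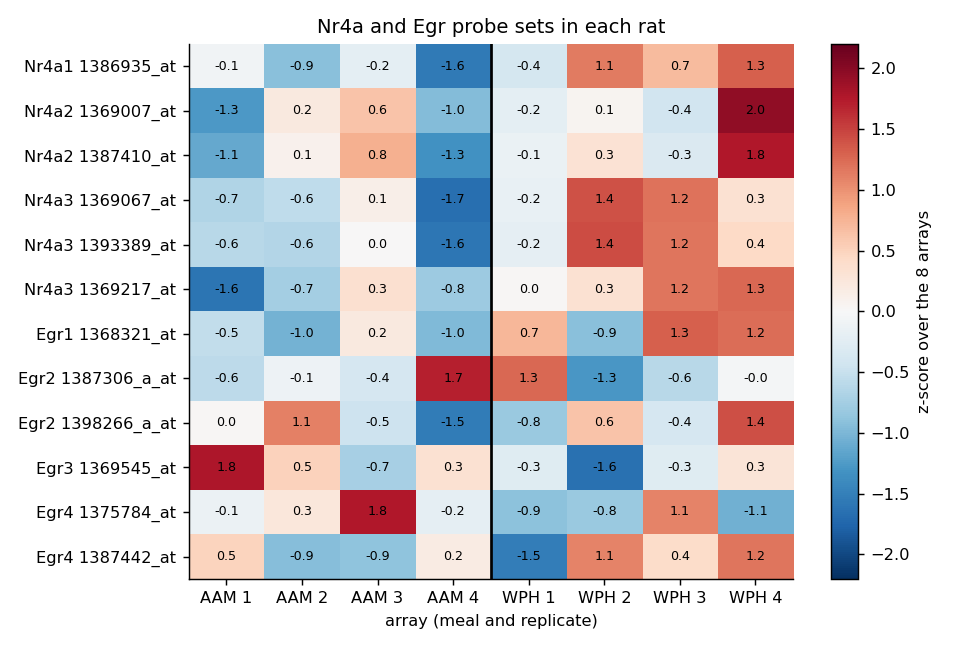
z-score of each of the 12 probe sets (rows) in each array (columns), computed over the 8 arrays; the black line divides the AAM from the WPH arrays. AAM replicate 4 is the lowest for Nr4a1 and for 2 Nr4a3 probe sets, WPH replicate 2 is high for these and low for Egr1, and WPH replicate 4 is the highest for both Nr4a2 probe sets.

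Across 14217 genes, each at its probe set of highest mean level, the 3 with the highest Pearson r over the 8 arrays were listed for each member, as a description without p-values because they are the extremes of many. For Egr1 they were Pi4k2b, a phosphatidylinositol kinase gene (r = 0.969), Minpp1, an inositol polyphosphate phosphatase gene (0.960), and Fos, which encodes a subunit of AP-1 (0.959; 0.897 without 2 arrays). Fos was at percentile 99.8 of spread, and Pi4k2b and Minpp1 at 46.3 and 45.7. For Nr4a3 they were Enpep, an aminopeptidase gene (0.968), Ptprj, a receptor phosphatase gene (0.958), and Dip2c (0.940). Dip2c (0.903) was also among the 3 for Nr4a1, with Tmem71 (0.942) and Serinc5 (0.902). For Nr4a2 they were Ell2, a transcription elongation factor gene (0.975), Stn1 (0.973) and Ezr, the ezrin gene (0.961). Values as high were found for members that hardly varied, and for Egr2: Vnn1 (0.986), Fam32a (0.952) and Yaf2 (0.933) for Egr3, Card9 (0.968), Adss2 (0.955) and Cxhxorf38 (0.953) for Egr4, and Nudt8 (0.955), Tekt5l1 (0.931) and Pdk1 (0.925) for Egr2.

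The genes around these factors were taken from 5 lists, and no listed gene passed the threshold. Over all 14217 genes, 46.1% were higher after WPH, and 3.39% had an unadjusted limma p below 0.05. Of the 96 distinct measured genes in the lists, 55 were higher. With median centring 42 were, a setting in which 9.01% of all probe sets were higher. Centring bears most on probe sets of small spread, so these shares were not compared. Of 30 upstream kinases and transcription factors measured (35 listed), 14 were higher and 16 lower, with a median standardized difference of -0.03. Only Mef2c, a muscle transcription factor gene, had an unadjusted limma p below 0.05 (standardized difference 2.40, 0.432 to 4.26). Its means differed by 0.0234 thousandths of a deposited log unit, against 0.821 for Nr4a1. Srf and Creb1 had -0.24 and 0.17. Of 5 partners and corepressors, 3 were higher and 2 lower. Those with the smallest p were Rxrg, a retinoid X receptor gene, with -1.24 (-2.74 to 0.348), and Nab2, itself a target of Egr factors, with 1.03 (-0.507 to 2.49).

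Other immediate early genes, 34 of 35 measured, were higher in 22 and lower in 12, with a median standardized difference of 0.44 against -0.06 over all genes. An unadjusted limma p below 0.05 was found for 4 of them, all higher after WPH. These were the AP-1 family genes Junb (2.25, 0.340 to 4.06) and Jund (1.77, 0.0281 to 3.42), the stress-induced Atf3 (2.05, 0.211 to 3.79), and Klf10, a Krüppel-like factor gene (1.75, 0.0124 to 3.39). Of the 34, only for Junb did the groups not overlap, against 2% of all genes (284 of 14217, in either direction). Among those with a p of 0.05 or above, the AP-1 genes Fos and Fosb had 1.54 (-0.129 to 3.12) and 1.41 (-0.219 to 2.96), and Dusp2 and Ier5 had 1.28 and 1.14. Jun had 0.24, Klf4 -0.14, Dusp1 -0.51 and Ccn1 -0.58. Of the 34, 25 lay above the 90th percentile of spread between rats, against 1936 of all 14217 genes.

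Genes that have been linked to the action of the factors had both signs. Of 19 muscle metabolic genes linked to Nr4a receptors, 11 were higher and 8 lower, with a median of 0.33. Pygm, the muscle glycogen phosphorylase gene, was the only one with an unadjusted limma p below 0.05 (1.82, 0.0592 to 3.48), against 3.39% of all genes. Its means differed by 0.0173 thousandths of a deposited log unit. Slc2a4, the insulin-responsive glucose transporter gene, had -0.40, Pfkm, a phosphofructokinase gene, -0.52, and Ppargc1a, a regulator of mitochondrial genes, -0.05. Of 10 measured genes linked to Egr factors, 6 were higher and 4 lower, with a median of 0.17. None had an unadjusted limma p below 0.05. Plau, the urokinase gene, had 1.41 (-0.221 to 2.96) and Tgfb1, a growth factor gene, -1.39 (-2.93 to 0.240).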

How the data were processed

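The authors deposited 1 table of log2-like expression values for 8 arrays. R 2.7.2 is named per the submitters' processing notes, while the sources used here do not state the array summary, normalization, log base or centring. The table held 31099 probe sets, from which the 57 controls were removed. Symbols came from the platform annotation: 20826 probe sets had 1 symbol, 436 had several and 9780 had none. The meals were compared with lmFit and eBayes of limma 3.58.1 (R 4.3.3). Its prior df was 0.549, the test was two-sided, and p-values were adjusted by Benjamini-Hochberg over all 31042 probe sets, with a threshold of 0.05. The standardized difference has an interval based on noncentral t with 6 degrees of freedom. Exact permutation tests of the meals ran over the 35 splits of 8 arrays, and those of the correlations over all orders of the 8 arrays. For gene lists, the probe set with the highest mean stood for each gene. The number of arrays limits the precision.

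The genes and lists were chosen with earlier results of these data known. The rule for named genes took every probe set of the 7 genes, the 3 genes most like each, and of each list those with an unadjusted p below 0.05 or else the 2 smallest; other listed genes were chosen after their values were seen. On simulated arrays of 31042 probe sets, for WPH against AAM, limma found 8 of 67 made to differ by 3 SD, 55 of 67 at 6 SD and 66 of 66 at 12 SD, and made 9 false calls. Alternatives were quantile normalization, median centring, a replicate block, only the brighter probe sets, leaving out arrays, a trended robust prior, 1 probe set per gene and a threshold of 0.1.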

Additional observations from a re-analysis of the deposited data

Results flagged for a closer look

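Among the 24 groups of 4 arrays formed by the 12 probe sets and both meals, 1 held an array far from the other 3. Egr4 probe set 1375784_at was high in WPH replicate 3 among the WPH arrays, with a gap to the nearest of 0.890 of the group's range, above Dixon's limit of 0.829. AAM replicate 3 was higher still (z-score 1.75 against 1.10), and the 8 arrays ranged over only 3.03 millionths of a deposited log unit. Chance alone marks about 1 in 20 groups.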

How the results depend on the processing

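No Nr4a or Egr probe set passed the threshold under any alternative run. Over all probe sets limma called 0 under each alternative except quantile normalization, which called 5, none of them a member. All 7 probe sets of Nr4a1, Nr4a2, Nr4a3 and Egr1 kept their direction under every alternative run on them. With 1 probe set per gene, 4 of 7 members were higher after WPH, against 46.1% of all genes. The signs of 5 Egr probe sets turned. For Egr2, 1387306_a_at had 0.21 without AAM replicate 4 and 0.032 without WPH replicate 2 (-0.90 to 0.21 over arrays left out), and 1398266_a_at had -0.46 with quantile normalization, -0.50 with median centring, -0.015 without AAM replicate 4 and -0.051 without AAM replicate 3 and WPH replicate 4 (up to 0.94 over arrays left out). With quantile normalization Egr3 had 0.71, and Egr4 had 0.99 (1375784_at) and -0.71 (1387442_at), the latter -0.49 with median centring. The cause was not tested. The replicate numbers are not said to pair rats, so the main fit used no pairing. Same-numbered arrays had correlations of -0.07 to 0.16 in their deviations, and 3 of 4 WPH arrays correlated best with their own number. These values cannot settle whether the numbers pair rats. With the replicate block limma called 0 probe sets, and the standardized differences that moved by over 1.5 times were -6.69 for Egr4 1375784_at and 3.60 for Nr4a3 1369217_at.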
